A study of Mus musculus with 24 samples.

Results

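Transcripts of 43 genes of the oxygen-using 2-oxoglutarate dioxygenases and their close relatives were examined in *M. gastrocnemius* of obese mice. The genes were chosen by name on the array. No measured value entered this rule, but earlier results of these data were known when it was set. They comprise the JmjC histone demethylases and other JmjC proteins (*Kdm2* to *Kdm8*, the *Jmjd* genes and *Phf8*), the *Tet* genes, the *Alkbh* genes with *Fto*, the collagen hydroxylases (*P4ha*, *Plod* and *Leprel* genes), *P4htm* and *Asph*. *Kdm5d* was left out. Of the 22328 named genes on the array, these 43 were represented by 73 probes, and 30 of them were measured, in that 1 or more of their probes had a Cy5 signal averaging over 2 times the local background. Male C57BL/6JOlaHsd mice, which arrived at 10 weeks of age, had 3 weeks of a low-fat diet (10 energy% fat) and 6 weeks of a high-fat diet (40 energy% fat). They were then kept for 6 h in air with 12% oxygen (Hypox, n = 12) or 20.9% oxygen (Norm, n = 12) at normal pressure. Both groups thus shared the diet, and a lean group was not analysed here. The RNA of each mouse (Cy5) was hybridised on a 2-colour array of its own against a pool of all samples (Cy3), so that every value is a log2 ratio of 1 mouse to that pool. The question addressed was whether the transcripts of enzymes that consume oxygen differed between Hypox and Norm.

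These enzymes join molecular oxygen and 2-oxoglutarate on an iron centre, releasing succinate and CO2, and leave a hydroxyl group on their substrate. On a methyl group, the hydroxylated product falls apart as formaldehyde, which removes the methyl mark from histones, DNA or RNA. On collagen, hydroxylation of proline and lysine stabilises the triple helix and prepares it for cross-linking. The HIF prolyl hydroxylases belong to the same superfamily, and the hypoxia-inducible factor (HIF) they control is known in other cells to raise some of the genes described here, among them *Kdm3a*, *Kdm4b*, *Kdm4c*, *P4ha1*, *P4ha2*, *Plod1* and *Plod2*. KDM5A and KDM6A are known as histone demethylases whose activity falls at low oxygen. The arrays measured transcripts, not enzyme activity or the marks themselves.

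After 6 h of hypoxia, the transcripts of these genes differed little from Norm. Of the 30 genes measured, 3 passed the study's threshold of an unadjusted *P*-value under 0.05, which were *Tet1* and *Jmjd1c* (lower in Hypox) and *Jmjd6* (higher). That is 10% of the genes, against 12.2% of all 9139 genes tested. By direction, 7.17% of all genes were called higher and 5.07% lower. After Benjamini-Hochberg adjustment over all genes, limma called 0 of the 30, as did the methods' t-test, with a lowest adjusted *P*-value of 0.266 (*Tet1*), against 0.339% of all genes. The log2 fold change was above 0 for 20 of the 30 genes (66.7%) and for 58.8% of all genes, with a median of 0.048 for the 30 and of 0.029 for all. The size of the change, without its sign, had a median of 0.097 for the 30 genes and of 0.090 for all genes. The log2 ratios of the groups overlapped for all 30 genes, as they did for all 9139 (0% without overlap).

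**Figure D1:**
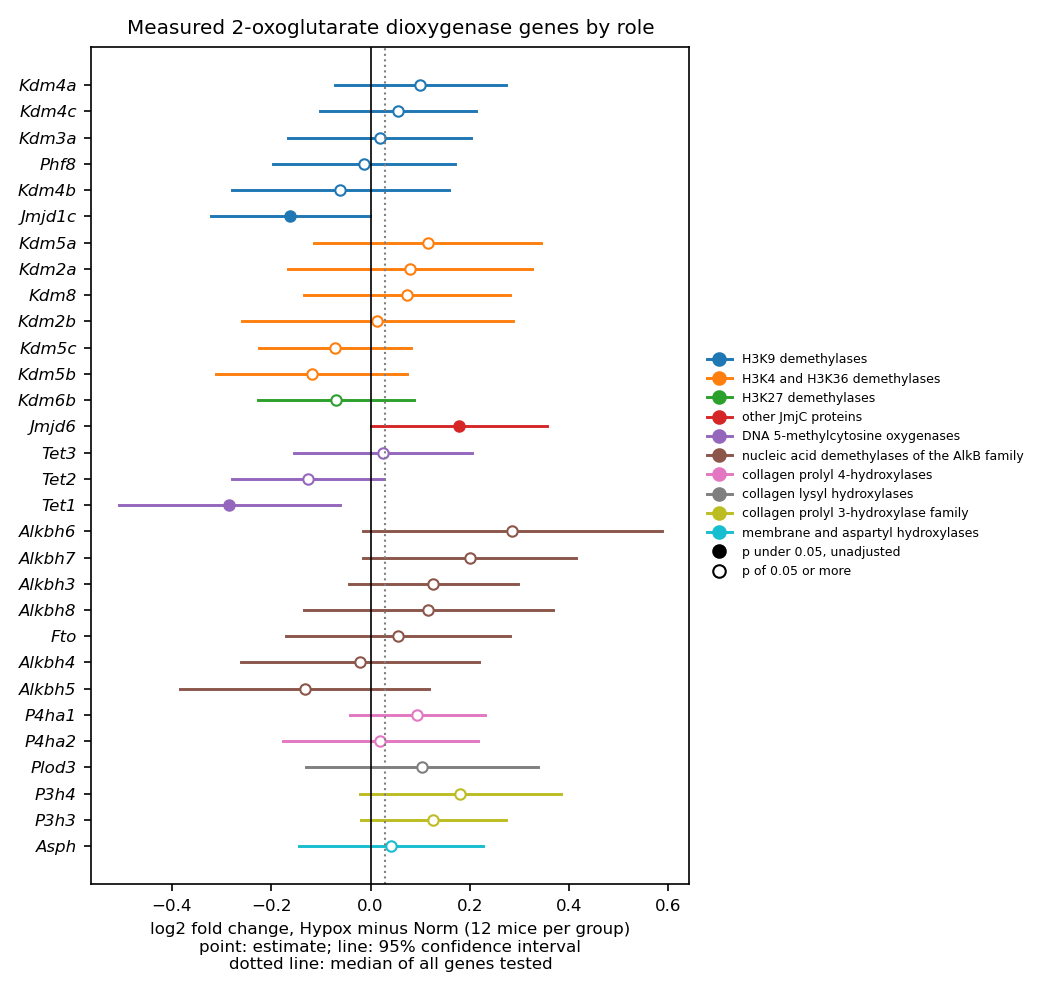
The x axis gives the log2 fold change (Hypox minus Norm) of the 30 measured genes, which are listed on the y axis and coloured by role. Points are limma estimates from 12 mice per group and lines their 95% confidence intervals. The intervals of 3 genes, *Tet1*, *Jmjd1c* and *Jmjd6* (filled points), do not include 0, and the estimates lie between -0.28 and 0.29.

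The confidence intervals limit the size of the changes. The 95% interval of a gene extended by a median of 0.19 to either side of its log2 fold change, and 28 of 30 intervals lay wholly between -0.5 and 0.5, which is 1.41-fold. The exceptions were *Alkbh6*, whose interval reached 0.59, and *Tet1*, whose interval reached -0.51. These limits hold for ratios with an offset added to the signals, which draws the ratios of dim probes towards 0. On the scanner software's processed signals, which lack it and differ in other steps too, the median half-width was 0.41 and 13 of 30 intervals lay within the same limits. The spread between mice was of the size usual on these arrays, with an SD of the 12 Norm log2 ratios from 0.13 (*P3h3*) to 0.33 (*Alkbh8*), a median of 0.22 for the 30 genes and of 0.22 for all genes.

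Detection set which genes could be followed. The filter took the mean over both groups of Cy5 signals that also enter the log2 ratios. For genes at its edge, filter and call thus share values. The probes of *Asph*, *Alkbh7*, *Alkbh3*, *Alkbh5* and *Alkbh6* were well above background on all 24 arrays. The genes just inside the filter were *P4ha1* and *Jmjd6* (both 2.02 times background) and *Tet1* (2.10), and those just outside were *Kdm3b* (1.90), *P4htm* (1.76) and *Jmjd7* (1.75). The other 10 genes below the filter had brightest probes at 1.75 (*Alkbh2*), 1.72 (*Kdm6a*), 1.69 (*Jmjd4*), 1.61 (*P4ha3*), 1.57 (*Plod1*), 1.44 (*Plod2*), 1.39 (*Jmjd8*), 1.26 (*Alkbh1*), 1.24 (*P3h2*) and 1.14 times background (*Kdm4d*). Among these are *Kdm6a*, of the H3K27 demethylases, and both *Plod1* and *Plod2*, whose products hydroxylate collagen lysines. Their probes were well above background on 9, 6 and 3 of 24 arrays, so that their levels were not measured here.

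**Figure D2:**
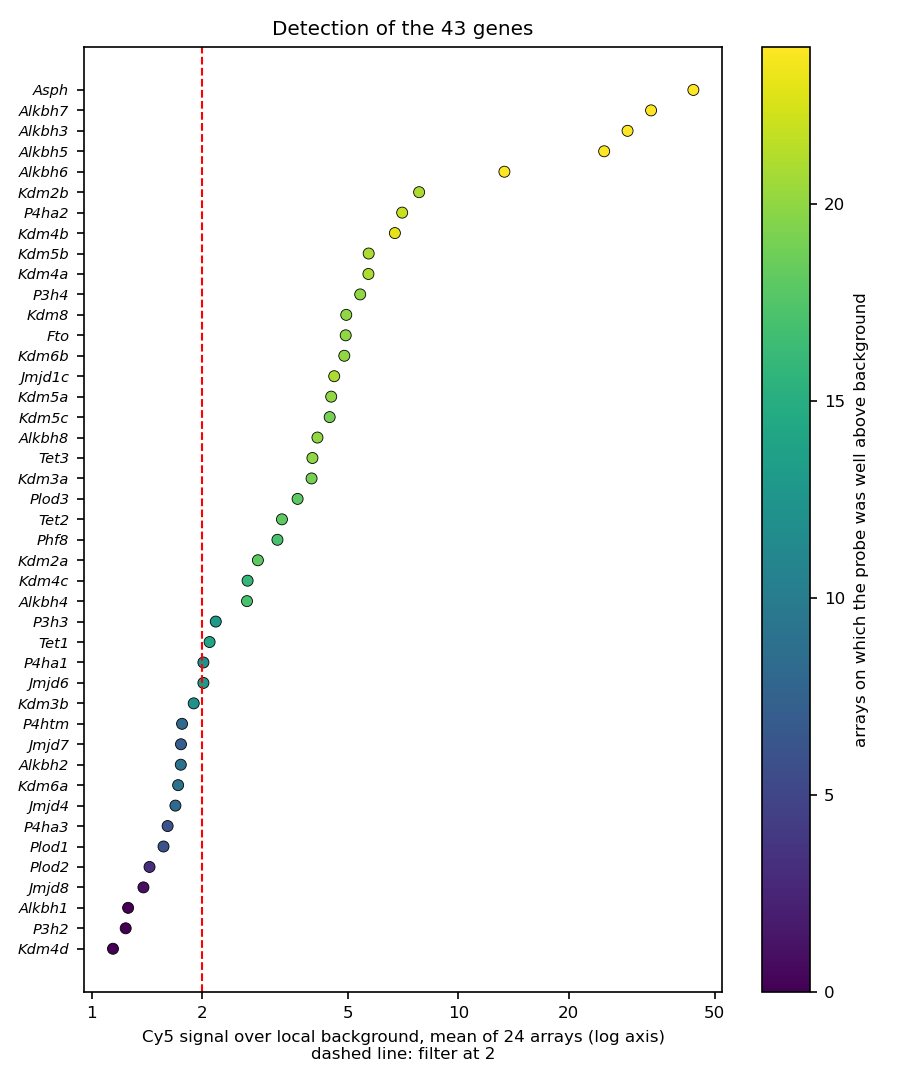
The x axis (log scale) gives the Cy5 signal over the local background, averaged over 24 arrays, of 1 probe for each of the 43 genes on the y axis. Colour shows on how many arrays the probe was well above background, which is 24 for the 5 topmost genes, and the dashed line marks the filter that 30 genes passed.

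The arrays differed in brightness, the mean Cy5 signal being 58.3 to 933 in Norm and 63.5 to 1014 in Hypox. They lay on 6 slides of 2 Norm and 2 Hypox arrays each. The array of Hypox replicate 2 stood apart. It was the highest or the lowest of the 24 arrays for 11 of the 30 genes, and its mean distance from the median array was 0.40 over the 30 genes and 0.42 over all genes, against 0.28 and 0.29 for the next array (Hypox replicate 12). Without Hypox replicate 2, 3 genes were called, *Tet1* (log2 fold change -0.29, p = 0.0157), *P3h3* (0.15, p = 0.0328) and *Alkbh3* (0.17, p = 0.0345), while *Jmjd6* (p = 0.0700) and *Jmjd1c* (p = 0.0927) were not. The muscle label fitted the data, since 7 of 7 fibre markers were measured, from 420 (*Myh1*) to 2686 times background (*Tnnt3*), and 0 of them passed the unadjusted threshold.

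Some markers of other cell types passed the unadjusted threshold, as did 12.2% of all genes, and 0 passed limma's adjusted threshold. Of the endothelial markers, 2 of 4 measured were higher in Hypox (*Cdh5* by 0.38 and *Esam* by 0.28 on the log2 scale), while *Kdr* gave -0.15 and *Tie1* -0.0040, neither past the threshold, with a mean log2 ratio over the list between -0.28 and 0.12 in Norm and between -0.23 and 0.086 in Hypox. Of the adipocyte markers, 3 of 3 measured lay below 0, and 2 passed the threshold, *Cfd* with -0.56 and *Adipoq* with -0.33. *Cidec*, with -0.12, did not pass it. The list mean lay between -0.95 and 1.22 in Norm and between -0.96 and -0.18 in Hypox. The lung surfactant gene *Sftpc* was the 1 measured marker of 7 from lung, with a log2 fold change of 0.81 and log2 ratios between -2.04 and -0.16 in Norm and between -1.39 and 2.58 in Hypox. Of 3 measured markers of macrophages and 4 of red blood cells 0 were called, with median log2 fold changes of -0.082 and 0.14. The list mean of the former lay between -0.39 and 0.33 in Norm and between -0.36 and 0.43 in Hypox, that of the latter between -0.86 and 0.39 in Norm and between -0.45 and 0.32 in Hypox. *Pecam1*, *Tek*, *Plin1* and *Lep* were below the filter. The part of these cell types in the values below was not tested, and in bulk RNA fewer cells of a type and less RNA per cell cannot be told apart.

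The largest decrease was that of *Tet1*, 1 of 3 genes whose products oxidise 5-methylcytosine in DNA to 5-hydroxymethylcytosine, the first step of active demethylation. The log2 ratio of *Tet1* ranged from -0.43 to 0.62 in Norm, with a median of -0.056. In Hypox it ranged from -0.71 to 0.25, with a median of -0.42. The groups overlapped, but 5 Hypox mice lay below the lowest Norm mouse and 1 Norm mouse above the highest Hypox mouse. The log2 fold change was -0.28 ± 0.11 (SE, p = 0.0140, limma's adjusted p = 0.266), or 0.821-fold, and 473 genes had a smaller *P*-value. Leaving out any 1 array kept p between 0.00211 and 0.0296. Hypox was lower on 5 of 6 slides, the exception being the dimmest (0.28), without which the log2 fold change was -0.40 (p = 0.00116, adjusted p = 0.0873). The choice to drop that slide was made after seeing the data, and it removes the slide of opposite direction. With arrays weighted by their quality, *Tet1* reached an adjusted p of 0.0231 in limma, while with Cy5 alone (-0.20, p = 0.123), with the processed signals (-0.55, p = 0.0615), with the deposited values (-0.32, p = 0.0533) and with centring on the median (-0.091, p = 0.536) it was not called. Under that centring the median of all genes was 0.25.

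The *Tet1* value rests on 1 probe close to the background. The probe was well above background on 8 Norm and 6 Hypox arrays, and the other 2 *Tet1* probes, at 1.31 and 1.20 times background, on 0 of 24. Those 2 gave log2 fold changes of -0.022 (p = 0.714) and -0.027 (p = 0.668). It lies on chr10:62276042-62276101 (mm9, minus strand), from base 5298 of NM_001253857, which the array's annotation assigns to *Tet1*. The exon structure of that build was not used here. The probes of *Tet1* and of *Jmjd6*, both called at about 2 times background, are shown because the calls depend on these single oligos, written 5′ to 3′ in lower case as the scanner files give them:
Tet1 probe: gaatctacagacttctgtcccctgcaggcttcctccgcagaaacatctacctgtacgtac
Jmjd6 probe: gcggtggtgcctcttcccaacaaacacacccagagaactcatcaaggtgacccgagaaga
The first is 51.7% and the second 55.0% G and C.

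*Tet2* had log2 ratios spanning -0.21 to 0.45 in Norm (median 0.045) and -0.27 to 0.22 in Hypox (median -0.020). Its log2 fold change of -0.13 ± 0.075 did not pass the threshold (p = 0.102), although the Hypox mean was below the Norm mean on 6 of 6 slides, with differences from -0.28 to -0.068. The other 2 *Tet2* probes were below the filter, at 1.64 and 1.27 times background and well above it on 6 and 0 of 24 arrays, and gave -0.072 and -0.12. *Tet3* gave 0.025 (95% interval -0.15 to 0.20).

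**Figure D3:**
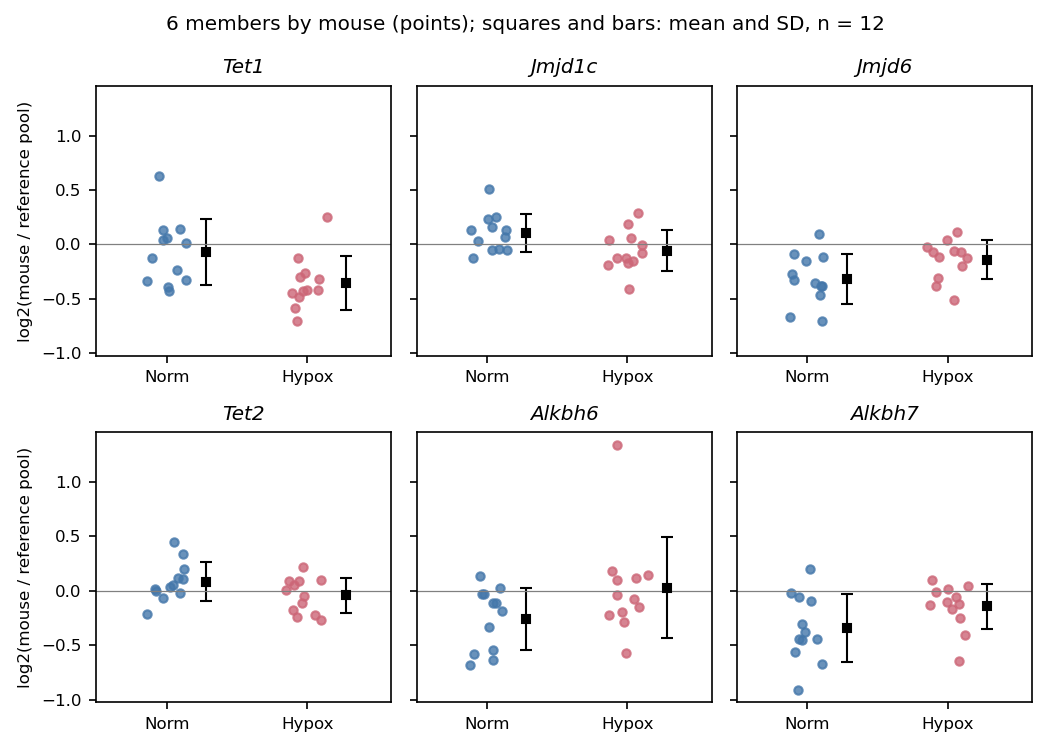
Each point is the log2 ratio of 1 mouse to the reference pool (y axis) in Norm or Hypox (x axis) for *Tet1*, *Jmjd1c*, *Jmjd6*, *Tet2*, *Alkbh6* and *Alkbh7*. Squares and bars are mean and SD of 12 mice. The groups overlap in every panel, and 1 Hypox mouse lies at 1.34 for *Alkbh6*.

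Of the genes for demethylases of histone H3 lysine 9, 6 of 8 were measured. *Jmjd1c*, a relative of *Kdm3a*, was the only one of the 6 past the threshold. Its log2 ratios spanned -0.13 to 0.51 in Norm (median 0.10) and -0.41 to 0.28 in Hypox (median -0.10). Of the Hypox mice 4 lay below every Norm mouse, and 1 Norm mouse lay above every Hypox mouse. The log2 fold change was -0.16 ± 0.078 (p = 0.0479, limma's adjusted p = 0.402), with Hypox lower on 4 of 6 slides. The probe lies on chr10:66718991-66719050 (mm9, plus strand), from base 8533 of NM_001242396. The call was near its limit, since with 1 array left out at a time p was under 0.05 in 9 of 24 fits (0.0172 to 0.102). It was lost with Cy5 alone (-0.091, p = 0.323), with the processed signals (-0.22, p = 0.316) and with a filter at 3 times background (p = 0.0522). The call held in limma on the deposited values (-0.27, p = 0.0233) and with array weights (-0.16, p = 0.0174). Without the dimmest slide, limma gave -0.23 (p = 0.0120). That setting was chosen after seeing the data and drops a slide on which *Jmjd1c* was higher in Hypox (0.17). With every array centred on its median instead of loess, which moved the median of all genes to 0.25, *Jmjd1c* lay at 0.030 and below that median.

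*Kdm4a* (0.10), *Kdm4c* (0.055), *Kdm3a* (0.018), *Phf8* (-0.013) and *Kdm4b* (-0.061), which act on the same lysine, did not pass the threshold. The genes grouped here as H3K4 and H3K36 demethylases, each gene being placed in a single group, were measured in 6 of 6 cases, and 0 passed it. Their log2 fold changes were 0.12 for *Kdm5a*, 0.079 for *Kdm2a*, 0.073 for *Kdm8* (*Jmjd5* on the array), 0.013 for *Kdm2b*, -0.071 for *Kdm5c* and -0.12 for *Kdm5b*. The interval of *Kdm5a*, an oxygen-sensitive H3K4 demethylase, ran from -0.11 to 0.34. *Kdm6b*, the H3K27 demethylase gene that was measured, gave -0.069 (95% interval -0.23 to 0.088).

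*Jmjd6*, whose product hydroxylates lysines of splicing proteins, was higher in Hypox. Its log2 ratios spanned -0.70 to 0.092 in Norm (median -0.34) and -0.51 to 0.12 in Hypox (median -0.089). All but 1 of the Hypox values lay within the Norm range, and 2 Norm mice lay below every Hypox mouse. The log2 fold change was 0.18 ± 0.087 (p = 0.0499, limma's adjusted p = 0.408), and the Hypox mean was higher on 6 of 6 slides, by 0.023 to 0.41. The probe (chr11:116702517-116702576, mm9, minus strand, base 867 of NM_033398) was well above background on 5 Norm and 8 Hypox arrays. The size depended on the signals used, as the processed signals gave 1.11 (p = 0.000705). Those signals lack the offset and were not put through loess here, and which step changed the size was not tested. Leaving out 1 array at a time kept p under 0.05 in 7 of 24 fits (0.0159 to 0.0994). The call was lost with array weights (0.16, p = 0.0532), with the deposited values (0.16, p = 0.297) and with median centring (0.26, p = 0.0960). With median centring the median of all genes was 0.25. A filter at 3 times background removes the gene.

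Of 7 members known as HIF targets in other cells, 5 were measured and 0 passed the unadjusted threshold, with log2 fold changes from -0.061 to 0.094 and a median of 0.019. *Kdm3a*, an H3K9 demethylase, spanned -0.13 to 0.40 in Norm (median 0.022) and -0.35 to 0.54 in Hypox (median 0.030). The Hypox values spread to either side of the Norm values, with 2 mice above and 3 below all of them. Its log2 fold change was 0.018 ± 0.090 (p = 0.842), with a 95% interval from 0.891-fold to 1.15-fold. *P4ha1*, the catalytic subunit gene of collagen prolyl 4-hydroxylase, spanned -0.41 to 0.086 in Norm (median -0.15) and -0.28 to 0.24 in Hypox (median -0.063). Its log2 fold change was 0.094 ± 0.066 (p = 0.167), with an upper limit of 1.17-fold. This probe was at 2.02 times background, and the processed signals gave 0.37 (p = 0.134).

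*Kdm4c* and *Kdm4b* ranged in Norm from -0.61 to 0.14 (median -0.14) and from -0.65 to 0.45 (median -0.39). In Hypox they ranged from -0.30 to 0.30 (median -0.13) and from -0.91 to 0.086 (median -0.37). The groups overlapped for both, with differences of 0.055 ± 0.077 (p = 0.479) and -0.061 ± 0.11 (p = 0.572). *P4ha2* spanned -0.37 to 0.27 in Norm (median -0.045) and -0.62 to 0.40 in Hypox (median 0.0026). Its log2 fold change was 0.019 ± 0.096 (p = 0.841).

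The letters of the HIF binding core, ACGTG or GCGTG on either strand, were counted in the 250 bases before each start site in RefSeq's promoters (GRCm38.p6). Of the 43 genes, 34 had a promoter in the table, and 19 of these (55.9%) held 1 or more matches in any of their promoters. These 34 include genes below the filter, and of the measured genes 16 held a match and 8 did not. Of the 7241 tested genes with a promoter, 61.9% held a match. Of all 32851 promoters, counted singly and not by gene, 38.6% did. Among the measured genes, the 16 with a match had a median log2 fold change of 0.019 and the 8 without one of 0.078. For all tested genes these medians were 0.032 and 0.027. The promoters of 3 measured members known as HIF targets are shown with the matches in capitals, because they hold 3 or more matches each while their transcripts did not pass the threshold. They lie on chr10:59323046-59323295 (*P4ha1*), chr11:54100674-54100923 (*P4ha2*) and chr4:74251629-74251878 (*Kdm4c*), all on the plus strand:
P4ha1: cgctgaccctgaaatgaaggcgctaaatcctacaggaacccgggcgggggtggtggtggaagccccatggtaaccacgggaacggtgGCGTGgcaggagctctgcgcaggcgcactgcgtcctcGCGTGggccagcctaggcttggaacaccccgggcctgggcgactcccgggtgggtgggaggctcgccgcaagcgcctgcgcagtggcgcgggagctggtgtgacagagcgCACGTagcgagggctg
P4ha2: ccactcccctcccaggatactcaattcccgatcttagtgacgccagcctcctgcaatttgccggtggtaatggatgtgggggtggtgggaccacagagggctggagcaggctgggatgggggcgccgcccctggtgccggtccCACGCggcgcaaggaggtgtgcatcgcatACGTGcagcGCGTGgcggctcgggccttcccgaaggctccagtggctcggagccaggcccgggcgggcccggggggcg
Kdm4c: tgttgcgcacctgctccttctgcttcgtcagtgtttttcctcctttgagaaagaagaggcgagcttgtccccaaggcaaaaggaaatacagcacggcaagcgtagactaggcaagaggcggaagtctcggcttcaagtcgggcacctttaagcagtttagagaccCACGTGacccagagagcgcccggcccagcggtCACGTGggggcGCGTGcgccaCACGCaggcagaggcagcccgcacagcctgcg
*P4ha1* and *P4ha2* held 3 matches each and *Kdm4c* 6, of which those within the palindrome CACGTG were read on both strands and overlap. *Kdm4c* has another promoter in the table, with 0 matches. A match describes letters only.

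In the AlkB family with *Fto*, which removes methyl groups from DNA, RNA or protein, 7 of 9 genes were measured, 5 lay above 0 and 0 passed the threshold. Their median log2 fold change was 0.12. The highest value of all 30 genes was that of *Alkbh6*, with log2 ratios spanning -0.68 to 0.13 in Norm (median -0.15) and -0.57 to 1.34 in Hypox (median -0.057). Of the Hypox mice 3 lay above every Norm mouse and 3 Norm mice lay below every Hypox mouse. The log2 fold change was 0.29 ± 0.15 (p = 0.0627, limma's adjusted p = 0.431). Much of it came from Hypox replicate 2, without which it was 0.17 (p = 0.123). It was 0.12 with the processed signals (p = 0.126), 0.26 with array weights (p = 0.0182) and 0.38 without the 4 arrays of the dimmest slide (p = 0.0251). The last setting was chosen after seeing the data and drops the slide on which *Alkbh6* was lower in Hypox (-0.17).

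*Alkbh7*, which encodes a mitochondrial member of the family, spanned -0.91 to 0.20 in Norm (median -0.41) and -0.64 to 0.10 in Hypox (median -0.11). All Hypox values lay within the Norm range. Its log2 fold change was 0.20 ± 0.11 (p = 0.0684, adjusted p = 0.443 in limma), with Hypox higher on 5 of 6 slides. Its other probe, from base 342 of the same transcript (NM_025538), gave 0.21 (p = 0.0235), and the mean of both gave 0.20 (p = 0.00682). *Alkbh3*, which repairs methylated bases, spanned -0.34 to 0.24 in Norm (median -0.11) and -0.42 to 0.31 in Hypox (median 0.12), with a log2 fold change of 0.13 ± 0.083 (p = 0.140). It was 0.22 with array weights (p = 0.00575) and 0.33 with the deposited values (p = 0.200).

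The remaining members include both erasers of N6-methyladenosine in RNA. *Fto* gave 0.056 (95% interval -0.17 to 0.28) and *Alkbh5* gave -0.13 (-0.38 to 0.12). *Alkbh8*, which modifies the wobble base of tRNA, gave 0.12 and *Alkbh4* gave -0.021. The probes of *Alkbh5* did not give the same answer. On the probe with the highest signal over background (36.7, base 3350) the log2 fold change was -0.0056, on the probe that stands for the gene (25.0, base 5596) -0.13, and on a dim one (2.23, base 4550) -0.23 with p = 0.00756. All 3 lie on NM_172943. Over the 35 measured probes of the 30 genes, 4 passed the unadjusted threshold, 1 higher and 3 lower, against 14.1% of all 14312 measured probes.

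**Figure D4:**
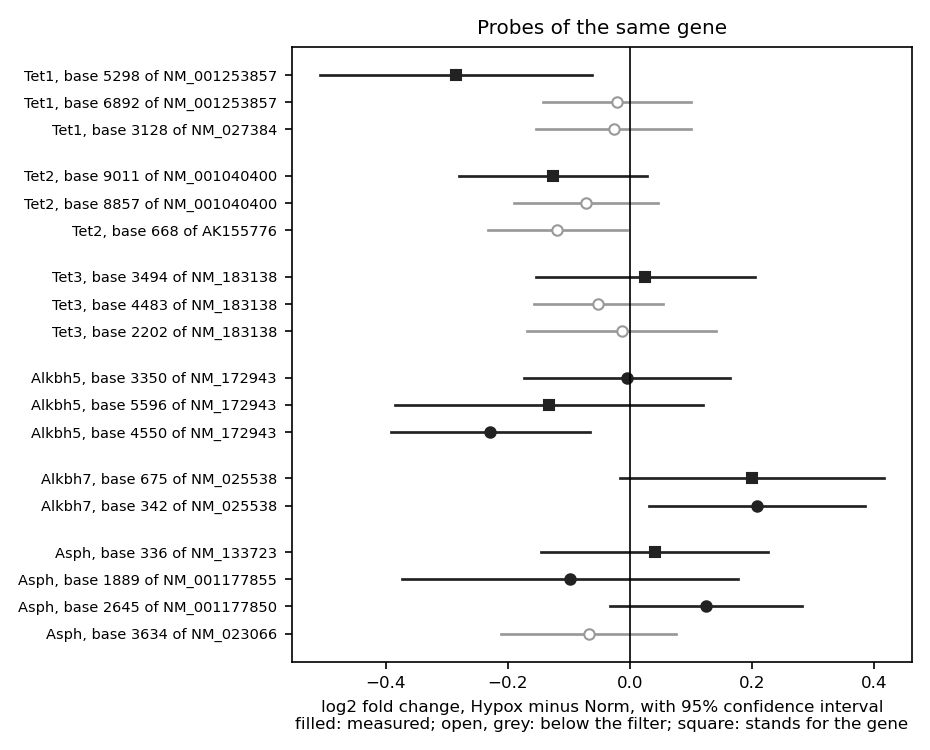
The x axis gives the log2 fold change (Hypox minus Norm) with its 95% confidence interval for every probe of *Tet1*, *Tet2*, *Tet3*, *Alkbh5*, *Alkbh7* and *Asph*, listed on the y axis by its first base in the transcript. Filled symbols are measured probes, open grey ones lie below the filter, and squares stand for the gene. The 2 probes of *Alkbh7* lie at 0.20 and 0.21, while the 3 of *Alkbh5* run from -0.0056 to -0.23.

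The collagen hydroxylases were measured in 5 of 9 cases, and 0 passed the threshold, although all 5 lay above 0. Beside *P4ha1* and *P4ha2*, these were *P3h4* (*Leprel4* on the array) with 0.18 (p = 0.0769), *P3h3* (*Leprel2*) with 0.13 (p = 0.0858) and *Plod3*, a lysyl hydroxylase, with 0.10 (p = 0.372). *P3h3* and *P3h4* act in the endoplasmic reticulum on nascent collagen, and the product of *P3h4* is a partner without catalytic residues. *P3h4* was called with the slide as a block (p = 0.0435), with array weights (0.24, p = 0.0117) and without the dimmest slide (0.26, p = 0.0205), and *P3h3* with the processed signals (0.47, p = 0.0176) and without Hypox replicate 2 (0.15, p = 0.0328). Dropping the dimmest slide was chosen after seeing the data, and on that slide *P3h4* was lower in Hypox (-0.19). *P4ha2* lay below 0 without Hypox replicate 2 (-0.013) and with array weights (-0.0080), as did *P4ha1* on the deposited values (-0.0039). Of 9 measured partners of collagen maturation, 0 passed, with a median of 0.088. Of 9 measured collagens, 3 passed limma's unadjusted threshold, as did 12.2% of all genes, and 0 passed the adjusted one. *Col4a1* (0.21, p = 0.0297) and *Col4a2* (0.25, p = 0.0416) of the basement membrane were higher and *Col1a2* (-0.40, p = 0.0141) was lower. Fibroblast markers were called in 1 of 7 cases, *Dcn* with -0.37, and the list mean ranged between -0.29 and 0.34 in Norm and between -0.22 and 0.49 in Hypox. Its part in the collagen enzymes was not tested.

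*Asph* hydroxylates aspartate and asparagine in EGF-like domains, but its locus also makes the shorter junctin and junctate of the sarcoplasmic reticulum, which lack the catalytic domain. The gene-level value came from the probe at base 336 of NM_133723 (chr4:9563054-9563113, mm9, minus strand), with log2 ratios spanning -0.60 to 0.25 in Norm (median -0.18) and -0.52 to 0.19 in Hypox (median -0.17). The groups lay over each other, with a log2 fold change of 0.041 ± 0.090 (p = 0.657). Towards the 3′ end of the locus, the probe at base 1889 of NM_001177855 gave -0.098 and the one at base 2645 of NM_001177850 gave 0.12, neither past the threshold. The probe nearest the 3′ end, at base 3634 of NM_023066 (chr4:9379226-9379285), was at 1.65 times background and well above it on 7 of 24 arrays, against 24, 24 and 16 arrays for the other 3 in that order. The measured *Asph* values therefore do not cover the 3′-most part of the locus.

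**Figure D5:**
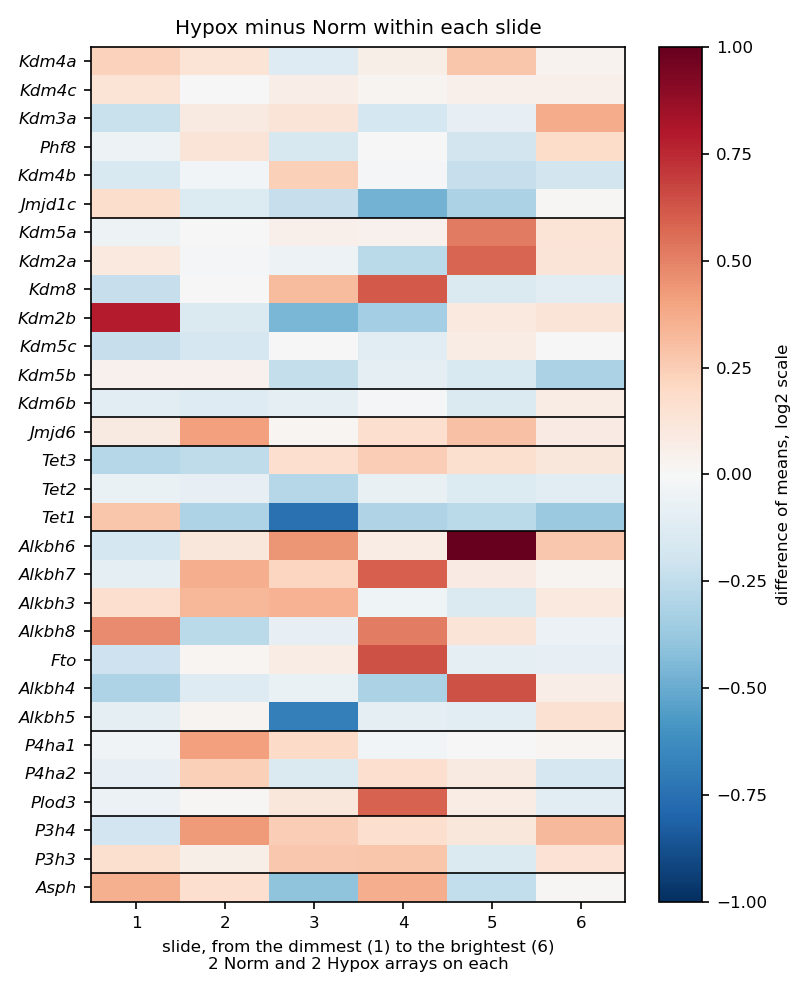
Colour shows the Hypox mean minus the Norm mean (log2 scale) within each slide (x axis, from the dimmest to the brightest, 2 arrays per group) for the 30 genes on the y axis, grouped by role. *Jmjd6* is higher on 6 of 6 slides and *Tet2* lower on 6 of 6, while the other rows change sign.

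Within slides, 2 of 30 genes, *Jmjd6* and *Tet2*, kept their direction on all 6. The median difference over the 30 genes was -0.057 on the dimmest slide and between 0.0080 and 0.042 on the other 5. Some genes had a far larger difference on 1 slide than on the others, such as *Kdm2b* with 0.79 on slide 1 and *Alkbh6* with 1.00 on slide 5, where Hypox replicate 2 lies.

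Genes that share cofactors or substrates with these enzymes were examined beside them. For comparison, 12.2% of all genes passed the unadjusted threshold, 7.17% higher and 5.07% lower, and 58.8% of all genes lay above 0. Of 15 other measured 2-oxoglutarate dioxygenases, 3 passed the unadjusted threshold, all higher in Hypox: *Ogfod3* with 0.40 ± 0.14 (p = 0.00876), *Ogfod2* with 0.22 ± 0.085 (p = 0.0138) and *Riox2*, a ribosomal oxygenase gene, with 0.14 ± 0.064 (p = 0.0405). The 19 measured genes for the supply of 2-oxoglutarate and for the acids that compete with it included 0 calls, with a median of 0.086. Of 10 genes of iron and ascorbate handling, *Slc40a1*, the iron exporter ferroportin, was higher (0.21, p = 0.0494). Writers of methyl marks on histones, DNA and RNA were also read, not all of them marks that these enzymes remove. Of 11 histone lysine methyltransferases *Dot1l*, which methylates H3K79, was lower (-0.21, p = 0.00828), and 8 of the 11 lay below 0, with a median of -0.11. Of 3 genes of DNA methylation, *Dnmt3a*, a de novo methyltransferase, was lower (-0.23, p = 0.0106). Among 6 writers and readers of N6-methyladenosine 0 passed, with a median of -0.030. In none of these lists did a gene pass limma's adjusted threshold.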

How the data were processed

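The scanner intensity of each spot was deposited by the authors for 24 arrays (Agilent Feature Extraction 10.7.3.1 per the submitters' processing notes), with a mean signal and a local background for each dye and no scaling between arrays. The log2 values that the authors deposited for 19360 probes had been normalized with GeneMaths XT, and the median is 6.58 in all columns. How Cy3 entered them is not given in the sources used here, and they served as an alternative. The sample descriptions gave the dyes, as some dye labels name others.

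Control spots and 7260 flagged readings were left out, and 0 Cy5 readings were saturated. After background correction by normexp with an offset of 50, each array's log2 ratio (Cy5 to Cy3) was normalized by loess and averaged per probe. A gene was found for 27235 of 55681 probes through the RefSeq accession, for 3581 through the symbol and for 565 through a synonym, while 24300 had none. All 43 genes matched a RefSeq symbol. Probes over 2 times background with at most 4 missing arrays were kept, and a gene was read from its measured probe of highest mean intensity in the 2 dyes. Between 9.42% and 37.3% of the Norm spots and between 12.0% and 37.8% of the Hypox spots of an array were well above background. The number of arrays limits the precision.

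Hypox was compared with Norm by limma over 9139 genes without a block, and *P*-values were adjusted over all of them. Lists are given by counts and medians. The result of 1 marker list is not reported here. Each measured gene is named. Genes past the unadjusted threshold, the 2 highest and 2 lowest changes, the 3 brightest and the HIF-linked genes have full statistics, and of each list of other genes those called are named. *Tet2*, *P3h3*, *P3h4* and the markers of other cells were described further after their values were seen. The members and lists were chosen with earlier results of these data known. Each array holds a separate mouse. Tested on simulated data, in which 200 of 9139 genes differed by 1 (log2), the fit recovered 98% with 8 false calls. That change is larger than any estimated for the measured members, whose log2 fold changes lay between -0.28 and 0.29. Recovery of changes as small as theirs was not tested. The alternatives, in the closing section, changed the signals, centring, dye, filter, probe choice, test, block, array weights or arrays used. The software was limma 3.58.1 in R 4.3.3, and numpy 2.4.6, scipy 1.17.1, pandas 2.3.3 and matplotlib 3.10.9 in Python 3.11.15.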

Additional observations from a re-analysis of the deposited data

How the results depend on the processing

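Among the 30 genes, 3 had an unadjusted p under 0.05, or 10%, against 12.2% of all genes. The count was 6 with array weights, where 18.8% of all genes were called. It was also 6 without the dimmest slide (chosen after seeing the data), against 14% of all genes. On the deposited values it was 1 (*Jmjd1c*), with limma (5.35% of all genes) or with the methods' t-test (5.65%). Centring on the median gave 0, against 0.35%. A filter at 3 times background left 23 of the genes, not including *Tet1* and *Jmjd6*, and 0 of the 23 were called, against 12.6% of all genes. Leaving out 1 array gave 1 to 4, with 1 (*Tet1*) without Norm replicates 2, 3 or 8 or Hypox replicates 5, 9 or 11. With array weights 1 of them, *Tet1*, passed limma's adjusted threshold, against 0 otherwise and 0 in every fit without 1 array. Their median log2 fold change of 0.048 was 0.22 with median centring, where that of all genes was 0.25, and 0.026 to 0.070 without 1 array. Under median centring *Jmjd1c* turned to 0.030. *Kdm3a* lay between -0.026 and 0.055, *Kdm4b* between -0.10 and 0.0085 and *P4ha2* between -0.020 and 0.073 without 1 array, all far from the threshold.

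Over all genes, 1118 had an unadjusted p under 0.05, and the count was 733 with Cy5 alone, 1718 with array weights, 488 on the deposited values, 516 with the methods' t-test on them, 2011 over every measured probe, 1939 without the filter, 32 with median centring and 974 to 1289 without 1 array. The adjusted count was 31, and it was 15 with Cy5 alone, 281 with array weights, 1 on the deposited values with either test, 143 over every measured probe, 13 with a filter at 1.5, 0 with median centring, 9 with the methods' t-test, 8 without the filter, 66 with processed signals, 70 with the slide as a block and 4 to 53 without 1 array. The cause of these shifts was not tested.

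Replicate numbers did not pair the samples, as 3 of 12 same-numbered pairs correlated above 0.1 (median 0.00857, from -0.204 to 0.520) and 2 of 12 Norm arrays correlated best with their own number. With the replicate number as a block, limma called 1194 genes unadjusted and 18 adjusted, and 4 of the 30, *Alkbh6* (p = 0.0478), *Alkbh7* (p = 0.0454), *Jmjd6* and *Tet1*, but not *Jmjd1c* (p = 0.0776).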
